A study of Mus musculus with 8 samples.

Results

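Messenger RNA levels of 33 components of the insulin receptor, PI3K, AKT and mTOR pathway were followed in mouse liver, in knockouts lacking hepatic Foxo1 and in wildtype controls. The members are a fixed list of gene symbols, matched by symbol to the Ensembl genes of the deposited table. All 33 were found among its 25690 genes, and 31 entered the test, for which the mean level of all 8 libraries had to reach 1 FPKM. FPKM is the number of fragments per transcript length and per library size, so it is a level per length and can be set against that of another gene. The 4 knockout libraries are called 3, 9, 10 and 11 here after their titles, and the 4 wildtype libraries 1, 3, 10 and 12. The labels give the tissue as liver and the genotype as hepatic FOXO1 knockout or wildtype control. The sources used here do not give the allele, the Cre driver, or the strain, age, sex and feeding state of the mice. Whether each library is 1 animal is not said either, and the p-values therefore rest on a spread that may be technical.

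Insulin binds its receptor, a tyrosine kinase, which phosphorylates the docking proteins IRS1 and IRS2. These recruit phosphoinositide 3-kinase (PI3K), a pair of a catalytic and a regulatory subunit, and the lipid it makes brings AKT to the membrane, where PDK1 and mTOR complex 2 activate it. In hepatocytes AKT excludes FOXO1 from the nucleus, releases glycogen synthesis from the kinase GSK3, and restrains the TSC complex, so that the small GTPase RHEB can switch on mTOR complex 1. FOXO1 in turn is known to promote transcription of Insr and Irs2, a feedback from the end of the pathway to its start.

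The depth of the libraries, estimated from the FPKM that a single fragment gives, was 26.8 M to 34.9 M fragments. Only estimates between 22 M and 40 M were kept, so a depth outside that window could not have been found. Foxo1 was at 0.224, 0.267, 0.375 and 0.212 FPKM in knockouts 3, 9, 10 and 11, against 3.21, 3.01, 3.38 and 3.81 FPKM in wildtypes 1, 3, 10 and 12. The summed level of 12 acute phase transcripts was 97713 and 96512 FPKM in knockouts 3 and 11 and 11853 and 12389 FPKM in knockouts 9 and 10, against 9307 to 10329 FPKM in wildtype. The summed level of 5 neutrophil markers was 56.2 and 136 FPKM in knockouts 3 and 11, 2.3 and 5.34 FPKM in knockouts 9 and 10, and 1.15 to 4.64 FPKM in wildtype. Nearly all of it in knockouts 3 and 11 was S100a8, at 31.4 and 77.2 FPKM, and S100a9, at 24.3 and 57.5 FPKM. Ly6g, Mpo and Elane reached at most 0.741 FPKM. Ly6g was above 0 only in knockouts 3 and 11, while Elane in knockout 3, at 0.234 FPKM, was below wildtype 1, at 0.298 FPKM. The summed level of 8 hepatocyte markers was 16428 FPKM in knockout 10, 34783 to 47053 FPKM in knockouts 3, 9 and 11, and 39354 to 45908 FPKM in wildtype. None was at 0 in all libraries. Alb was listed at 0 in knockout 10 but at 20877 to 27822 FPKM in all other libraries, and the reason was not tested. The summed level of 7 sinusoidal endothelial markers was 37.3 to 65.5 FPKM in knockout and 66.1 to 86.6 FPKM in wildtype liver, so the sums did not overlap. Singly, Stab1 and Egfl7 were apart between groups, while Stab2, Lyve1, Pecam1, Kdr and Clec4g overlapped. Pecam1, for example, was at 1.01 to 1.53 FPKM in knockout and 0.992 to 1.32 FPKM in wildtype liver. For 5 cholangiocyte markers the sum was 15.6 to 24.7 FPKM in knockout and 11.3 to 16.7 FPKM in wildtype liver, and the groups overlapped. Most of that sum was 1 gene, Spp1, at 14.1 to 22.9 FPKM in knockout and 10.4 to 15.5 FPKM in wildtype liver. In bulk tissue fewer cells of a type and less RNA per cell cannot be told apart, and the part of these other cells in the results below was not tested.

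Of the 31 tested members, 1 rose and 3 fell in knockout liver (limma on log2(FPKM + 1), Benjamini-Hochberg adjusted p under 0.05 over all 10250 tested genes). The riser was Akt1, and the genes that fell were Insr, Rheb and Ppp1r3c. The share of members called, 12.9%, was near the 14.4% of all tested genes (2.7% higher and 11.7% lower), so the count does not set the pathway apart from the rest of the transcriptome. Knockout and wildtype levels were fully apart for 6 of 31 members, which is 19.4%, against 21.3% of all tested genes. Besides Akt1, Insr and Rheb these were Grb14, Ppp1r3g and Rptor. The log2 change was above 0 for 16 members and below 0 for 15, with a median of 0.04, while the median over all tested genes was -0.08. For 12 of the 31, none of which passed, the sign changed in at least 1 alternative. It was within 0.2 of 0 for 19 members, or 61.3%, and for 53.9% of all tested genes. With quantile normalization 2 members rose and 1 fell, against 4.59% and 6.36% of all tested genes, and without knockouts 3 and 11 there were 0 and 0, against 1.94% and 6.4%. Counts over all genes depended on the scaling: 277 were higher and 1195 lower on the FPKM scale as deposited, 485 and 720 with median-ratio scaling, and 516 and 585 with the trend along transcript length removed. The tested members have long transcripts, with a median of 5531 bases against 3064 bases for all tested genes, and with that trend removed the median log2 change was 0.05 for the members and 0.01 for all genes.

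**Figure D1:**
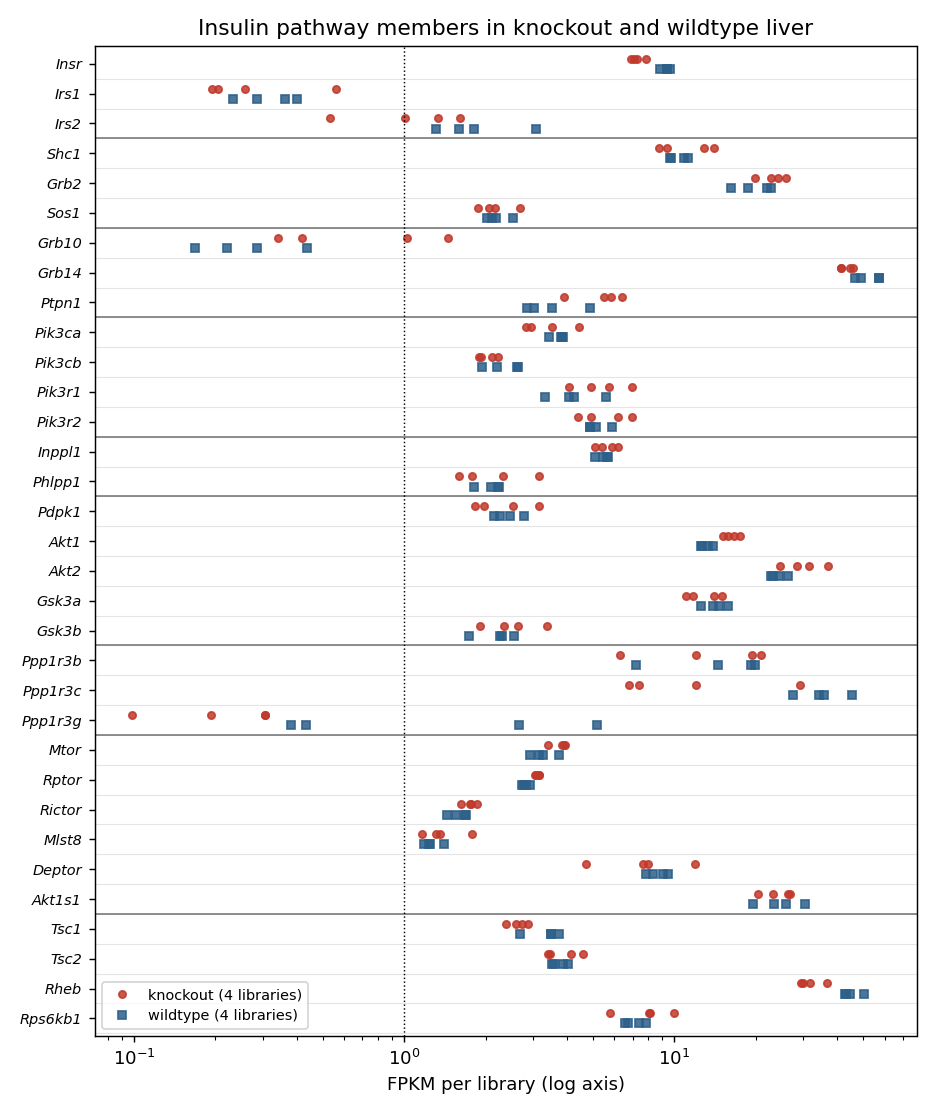
FPKM of the 33 members in each library on a log axis, ordered by role from the receptor to S6 kinase, with knockout libraries as circles above wildtype libraries as squares. The dotted line marks 1 FPKM; Irs1 and Grb10 have means of 0.313 and 0.544 FPKM, and Rheb and Grb14 are the highest members of their roles.

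**Figure D2:**
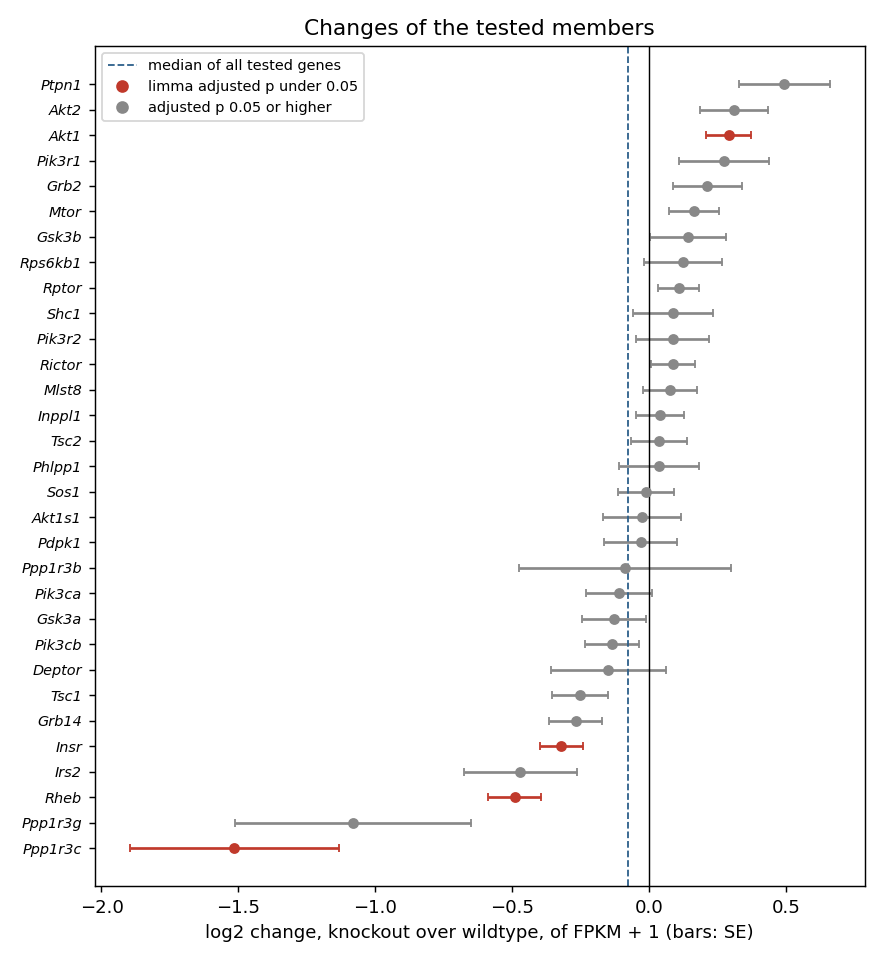
Log2 change of FPKM + 1, knockout over wildtype, of the 31 tested members, with the standard error as bars. The 4 members in red passed, Akt1 at 0.29, Insr at -0.32, Rheb at -0.49 and Ppp1r3c at -1.52, and the dashed line is the median of all tested genes, -0.08.

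At the head of the pathway the receptor transcript was lower. Insr, which encodes the insulin receptor (ENSMUSG00000005534, chromosome 8, 3122061 to 3279617, minus strand, mm10), was at 7.28, 7.09, 7.83 and 6.88 FPKM in knockouts 3, 9, 10 and 11, against 9.4, 8.84, 9.67 and 9.41 FPKM in wildtypes 1, 3, 10 and 12. Each knockout library was below each wildtype library, and the antisense gene Gm16180 overlaps it, whose reads cannot be told apart without strand. Both groups were narrow, with coefficients of variation of 5.63% in knockout and 3.76% in wildtype liver. The mean fell by 22.1%, and the log2 change was -0.32 (SE 0.08, limma adjusted p = 0.0274). It kept its size without knockouts 3 and 11, at -0.29, but did not pass there (limma adjusted p = 0.106). The call was also lost with median-ratio scaling (-0.22, limma adjusted p = 0.0683), with quantile normalization (0.0501), with a GC correction (0.0737), and without knockout 3, knockout 11, wildtype 1, wildtype 10 or wildtype 12, each alone (0.0582 to 0.0854).

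The docking protein transcripts were low in both groups. Irs2, the main insulin receptor substrate of the fasted liver, was at 1, 1.61, 1.33 and 0.531 FPKM in knockouts 3, 9, 10 and 11, against 3.08, 1.59, 1.81 and 1.31 FPKM in wildtypes 1, 3, 10 and 12. Knockout 9 was above wildtypes 3 and 12, so the groups overlapped, and wildtype 1 was well above all other libraries. The mean FPKM differed by -42.6%, and the log2 change of -0.47 (SE 0.21) did not pass (limma adjusted p = 0.161). It was -0.30 without wildtype 1 and -0.22 without knockouts 3 and 11. As the levels are low, its size depends on the pseudocount: with 0.1 it was -0.77 (limma adjusted p = 0.163). Irs2 passed in 0 of 18 alternatives other than the replicate block, with log2 changes between -0.77 and -0.22. Irs1 was not tested, with 0.205, 0.56, 0.258 and 0.194 FPKM in the knockout libraries, against 0.363, 0.234, 0.401 and 0.286 FPKM in the wildtype libraries. At its transcript length these values stand for about 57 to 155 fragments per library. Irs2 was above Irs1 in 8 of 8 libraries. The log2 ratio of Irs2 to Irs1 averaged 1.91 ± 0.489 in knockout and 2.55 ± 0.447 in wildtype liver (SD, n = 4 each), a difference of -0.65 that did not pass an exact permutation test (two-sided p = 0.171, Benjamini-Hochberg adjusted p = 0.257 over 3 ratios, higher in wildtype). The smallest p this design allows is 0.0286.

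The adaptors that lead from the receptor to RAS did not pass. Shc1, which binds the phosphorylated receptor, averaged 11.2 ± 2.58 FPKM in knockout and 10.4 ± 0.776 FPKM in wildtype liver (SD, n = 4 each). Grb2, which links SHC1 and the IRS proteins to SOS, averaged 23.1 ± 2.48 FPKM in knockout and 19.9 ± 3.06 FPKM in wildtype liver. Sos1, the exchange factor that loads RAS with GTP, averaged 2.19 ± 0.344 FPKM in knockout and 2.21 ± 0.221 FPKM in wildtype liver. Their log2 changes lay between -0.01 and 0.21.

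Among the brakes on the receptor, Grb14 was the most abundant transcript of all 33 members. It encodes an adaptor that inhibits the receptor's kinase, and it was at 41.3, 45.6, 41.2 and 44.6 FPKM in knockouts 3, 9, 10 and 11, against 57.1, 48.9, 57.2 and 46.4 FPKM in wildtypes 1, 3, 10 and 12. The groups did not overlap, although knockout 9 and wildtype 12 were close. The log2 change of -0.27 (SE 0.10) did not pass (limma adjusted p = 0.0961), and it depended on the scaling, at -0.16 with median-ratio scaling and -0.09 with quantile normalization, while it passed with array quality weights (limma adjusted p = 0.0475). Its paralog Grb10 was not tested, with 0.341, 1.03, 1.45 and 0.42 FPKM in the knockout libraries, against 0.169, 0.437, 0.222 and 0.284 FPKM in the wildtype libraries, and its groups overlapped. Grb14 was above Grb10 in 8 of 8 libraries, by a factor of 28.4 to 121 in knockout and 112 to 338 in wildtype liver. Ptpn1, the gene of the phosphatase PTP1B, which dephosphorylates the receptor, was at 6.37, 5.82, 3.9 and 5.5 FPKM in knockouts 3, 9, 10 and 11, against 3.52, 3.02, 2.84 and 4.86 FPKM in wildtypes 1, 3, 10 and 12. Knockout 10 was below wildtype 12, and the other knockout libraries were above all wildtype libraries. Its log2 change was 0.49 (SE 0.17) and did not pass (limma adjusted p = 0.079). It passed without knockout 10 (0.62, limma adjusted p = 0.034) and without wildtype 12 (0.62, limma adjusted p = 0.0401), and was 0.36 without knockouts 3 and 11 (limma adjusted p = 0.313).

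None of the 4 PI3K genes passed. The catalytic subunit gene Pik3ca averaged 3.43 ± 0.738 FPKM in knockout and 3.74 ± 0.202 FPKM in wildtype liver (SD, n = 4 each), and Pik3cb averaged 2.04 ± 0.156 FPKM in knockout and 2.35 ± 0.343 FPKM in wildtype liver. Pik3r1, whose product p85alpha stabilizes the catalytic subunit and holds it inactive until it meets a phosphorylated docking protein, was at 4.08, 5.71, 6.97 and 4.91 FPKM in knockouts 3, 9, 10 and 11, against 4.08, 4.24, 5.56 and 3.31 FPKM in wildtypes 1, 3, 10 and 12. Its groups overlapped (log2 change 0.27, SE 0.17, limma adjusted p = 0.304). The regulatory subunit gene Pik3r2 averaged 5.63 ± 1.18 FPKM in knockout and 5.18 ± 0.478 FPKM in wildtype liver. The log2 ratio of Pik3r1 to the sum of Pik3ca and Pik3cb averaged -0.0282 ± 0.26 in knockout and -0.523 ± 0.324 in wildtype liver (SD, n = 4 each). The difference of 0.50 did not pass (exact permutation test, two-sided p = 0.0571, Benjamini-Hochberg adjusted p = 0.171), and the lowest knockout library, at -0.246, was just under the highest wildtype library, at -0.229. The phosphatase genes that act on the PI3K product and on AKT were close between groups: Inppl1, the gene of SHIP2, averaged 5.63 ± 0.501 FPKM in knockout and 5.44 ± 0.269 FPKM in wildtype liver, and Phlpp1 averaged 2.21 ± 0.699 FPKM in knockout and 2.09 ± 0.196 FPKM in wildtype liver.

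**Figure D3:**
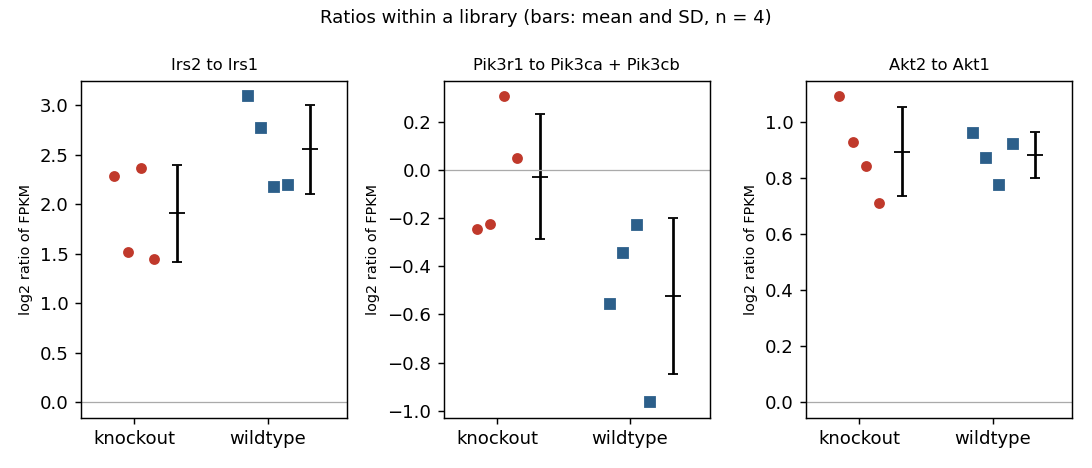
Log2 ratio of FPKM within each library for 3 pairs, with knockout left of wildtype and the mean and SD of 4 libraries beside the points. A ratio within a library does not change with library scaling; the groups overlap in all 3 panels, and the PI3K ratio differs most in relation to its spread, by 0.50.

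Of the AKT isoforms, Akt1 rose. Akt1 (ENSMUSG00000001729, chromosome 12, 112653821 to 112674884, minus strand, mm10) was at 17.4, 16.6, 15.8 and 15.1 FPKM in knockouts 3, 9, 10 and 11, against 12.5, 12.7, 13.3 and 13.9 FPKM in wildtypes 1, 3, 10 and 12. Each knockout library was above each wildtype library, and the mean was 24.1% higher (log2 change 0.29, SE 0.08, limma adjusted p = 0.0448). The log2 change was the same size without knockouts 3 and 11, at 0.29, and 0.39 with median-ratio scaling, where it passed (limma adjusted p = 0.0178). The call was lost without knockouts 3 and 11 (0.098) and without any single library except knockout 11 (0.0598 to 0.131). Akt2, the isoform that insulin's metabolic action in liver depends on most, was at 37.1, 31.6, 28.4 and 24.7 FPKM in knockouts 3, 9, 10 and 11, against 24.3, 23.1, 22.7 and 26.3 FPKM in wildtypes 1, 3, 10 and 12. Knockout 11 was below wildtype 12, so the groups overlapped, and the log2 change of 0.31 (SE 0.12) missed the threshold (limma adjusted p = 0.126) but met it after quantile normalization (0.46, limma adjusted p = 0.0498). Akt2 was above Akt1 in 8 of 8 libraries. Their log2 ratio averaged 0.892 ± 0.159 in knockout and 0.881 ± 0.0806 in wildtype liver (SD, n = 4 each, exact permutation test, two-sided p = 0.943, Benjamini-Hochberg adjusted p = 0.943).

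The kinases around AKT did not pass. Pdpk1, the gene of PDK1, which phosphorylates AKT in its activation loop, averaged 2.37 ± 0.604 FPKM in knockout and 2.41 ± 0.282 FPKM in wildtype liver (SD, n = 4 each). Gsk3a, one of the glycogen synthase kinases that AKT inhibits, averaged 12.9 ± 1.88 FPKM in knockout and 14.2 ± 1.37 FPKM in wildtype liver. Gsk3b averaged 2.57 ± 0.616 FPKM in knockout and 2.21 ± 0.345 FPKM in wildtype liver. Gsk3a was above Gsk3b in 8 of 8 libraries, by a factor of 4.14 to 7.87 in knockout and 5.73 to 7.21 in wildtype liver.

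Of the 4 members that passed, the largest log2 change was in a gene that brings protein phosphatase 1 to glycogen. Ppp1r3c (ENSMUSG00000067279, chromosome 19, 36731731 to 36736653, minus strand, mm10) encodes PTG, a targeting subunit through which the phosphatase activates glycogen synthase. It was at 6.78, 29.2, 7.37 and 12 FPKM in knockouts 3, 9, 10 and 11, against 35.7, 45.3, 27.6 and 34.2 FPKM in wildtypes 1, 3, 10 and 12. Knockouts 3, 10 and 11 were below all wildtype libraries, while knockout 9 was above wildtype 10. The mean fell by 61.2% (log2 change -1.52, SE 0.38, limma adjusted p = 0.0294). Without knockout 9 the log2 change was -1.93 (limma adjusted p = 0.00532), and without knockouts 3 and 11 it was -1.185 and did not pass (0.155). The call was lost with no filter on low values (0.0777), quantile normalization (0.0596) or robust variance moderation (0.0505), and without knockout 3, 10 or 11 or wildtype 1, 3, 10 or 12, each alone (0.0507 to 0.0767).

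The other targeting subunit genes did not pass and varied widely between libraries of a group. Ppp1r3b, the gene of the liver subunit GL, was at 12, 19.3, 6.29 and 20.8 FPKM in knockouts 3, 9, 10 and 11, against 14.6, 19.2, 19.8 and 7.21 FPKM in wildtypes 1, 3, 10 and 12. Knockout 10 and wildtype 12 were low and the groups overlapped throughout (log2 change -0.09, SE 0.39, limma adjusted p = 0.905). Ppp1r3g was at 0.193, 0.0984, 0.306 and 0.305 FPKM in knockouts 3, 9, 10 and 11, against 5.18, 0.382, 2.66 and 0.435 FPKM in wildtypes 1, 3, 10 and 12. Each knockout library was below each wildtype library, but wildtypes 3 and 12 were close to the knockout libraries. It stood for about 7 to 25 fragments per knockout library and 25 to 372 per wildtype library. The log2 change of -1.08 (SE 0.43) did not pass (limma adjusted p = 0.126), and it was -0.66 without wildtype 1. Its size depends on the pseudocount, since the levels are low: with a pseudocount of 0.1 it was -2.15 (limma adjusted p = 0.0817), larger than the -1.6 of Ppp1r3c there, and the mean FPKM differed by -89.6%. Within wildtype liver Ppp1r3g, Grb10, Irs2 and Ppp1r3b were the members with the widest spread, with coefficients of variation of 105%, 41.7%, 40.3% and 38.3%.

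**Figure D4:**
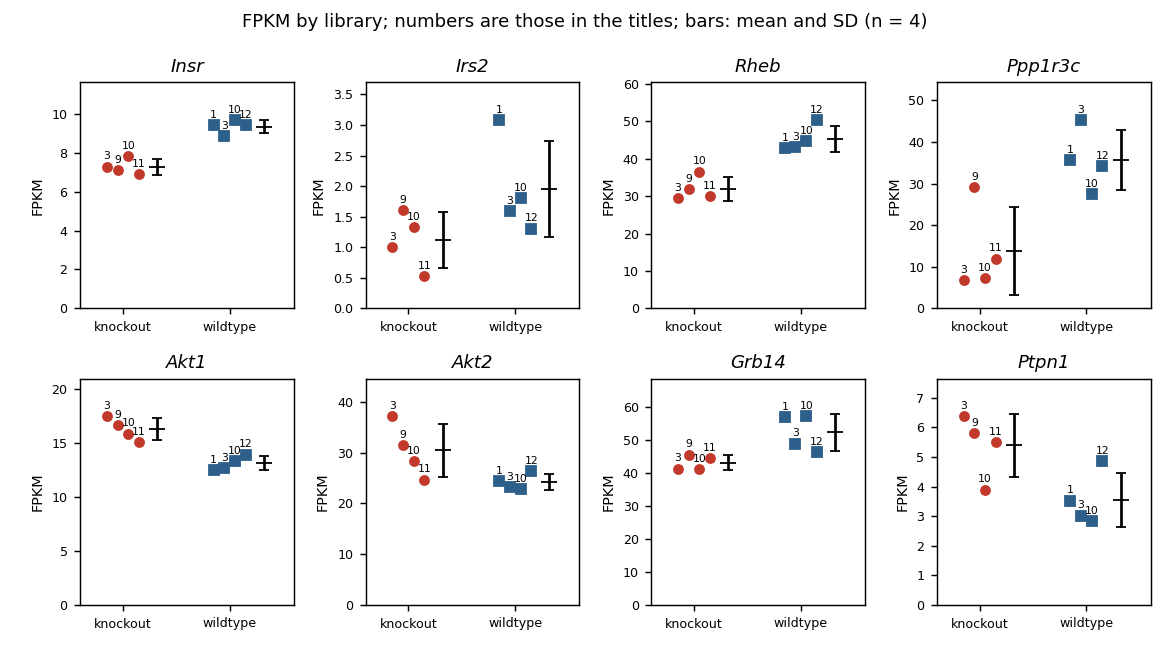
FPKM of 8 members in each library, with the number from the title above each point and the mean and SD of 4 libraries beside it; all axes start at 0. The groups are apart for Insr, Rheb, Akt1 and Grb14, while knockout 9 lies among the wildtype libraries for Ppp1r3c and knockout 10 among them for Ptpn1.

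Of the 4 passing members, Rheb passed in the most alternatives. It encodes the GTPase that activates mTOR complex 1. Rheb (ENSMUSG00000028945, chromosome 5, 24802823 to 24842624, minus strand, mm10) was at 29.4, 31.8, 36.6 and 30 FPKM in knockouts 3, 9, 10 and 11, against 42.9, 43, 44.7 and 50.4 FPKM in wildtypes 1, 3, 10 and 12. Each knockout library was below each wildtype library, and the mean fell by 29.4% (log2 change -0.49, SE 0.10, limma adjusted p = 0.0122). The gene passed in 18 of 19 alternatives, leaving aside the replicate block, with log2 changes between -0.56 and -0.33. It did not pass without knockouts 3 and 11, where the log2 change was -0.39 (limma adjusted p = 0.0669). In the TSC complex, which keeps RHEB inactive, Tsc1 was at 2.87, 2.39, 2.74 and 2.59 FPKM in knockouts 3, 9, 10 and 11, against 3.5, 2.68, 3.5 and 3.75 FPKM in wildtypes 1, 3, 10 and 12. Wildtype 3 lay among the knockout libraries, and Tsc1 did not pass (log2 change -0.25, SE 0.10, limma adjusted p = 0.133). Tsc2, the subunit with GTPase-activating activity towards RHEB, averaged 3.89 ± 0.573 FPKM in knockout and 3.75 ± 0.236 FPKM in wildtype liver (SD, n = 4 each, limma adjusted p = 0.849). Tsc2 overlaps Pkd1 on the opposite strand, and without strand information reads of overlapping genes cannot be told apart. Rps6kb1, the gene of the S6 kinase downstream of mTOR complex 1, averaged 7.98 ± 1.71 FPKM in knockout and 7.14 ± 0.604 FPKM in wildtype liver (limma adjusted p = 0.609).

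The 6 genes of the mTOR complexes did not pass, with log2 changes between -0.15 and 0.16. Mtor, the kinase of both complexes, averaged 3.77 ± 0.253 FPKM in knockout and 3.27 ± 0.345 FPKM in wildtype liver (SD, n = 4 each, limma adjusted p = 0.269). Rptor, which defines complex 1, was at 3.15, 3.05, 3.15 and 3.09 FPKM in knockouts 3, 9, 10 and 11, against 2.73, 2.78, 2.82 and 2.92 FPKM in wildtypes 1, 3, 10 and 12. The groups did not overlap and both were narrow, but the log2 change of 0.11 (SE 0.07) did not pass (limma adjusted p = 0.372). Rictor, which defines complex 2, averaged 1.75 ± 0.0942 FPKM in knockout and 1.59 ± 0.121 FPKM in wildtype liver, and Rptor was above it in 8 of 8 libraries. Mlst8, a subunit of both complexes, averaged 1.4 ± 0.265 FPKM in knockout and 1.27 ± 0.0964 FPKM in wildtype liver. Of the inhibitory subunits, Deptor averaged 8.07 ± 2.97 FPKM in knockout and 8.67 ± 0.708 FPKM in wildtype liver, with a range of 4.69 to 11.9 FPKM among the knockout libraries. Akt1s1, the gene of the AKT substrate PRAS40, averaged 24.1 ± 2.95 FPKM in knockout and 24.8 ± 4.6 FPKM in wildtype liver, and was above Mtor in 8 of 8 libraries.

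**Figure D5:**
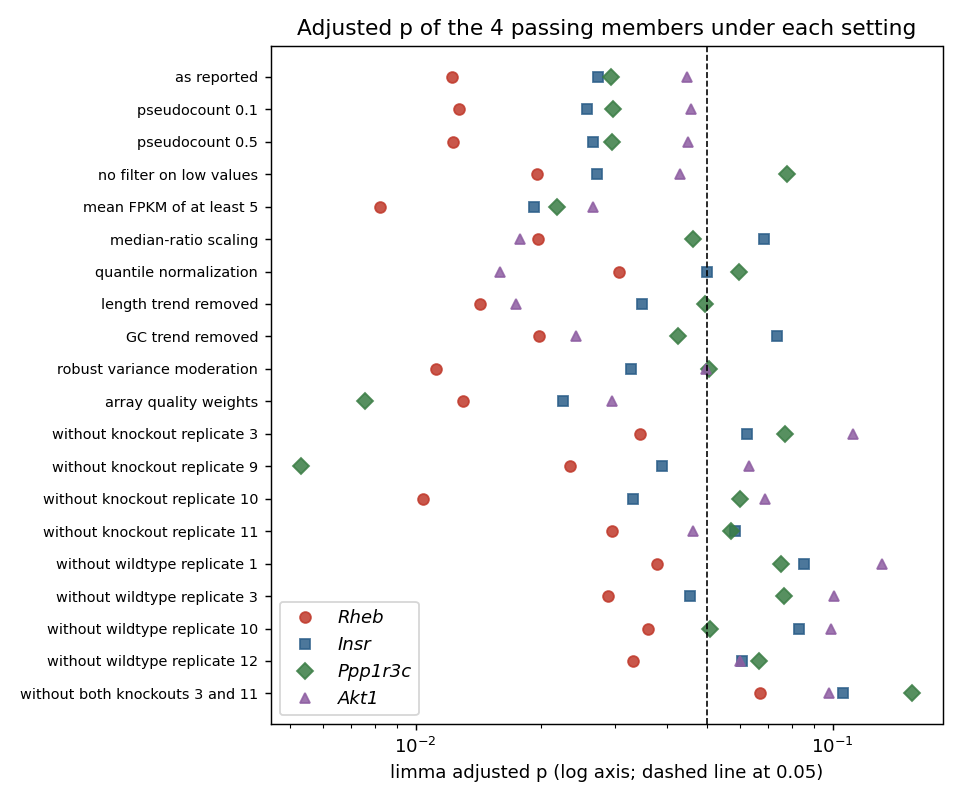
Limma adjusted p of the 4 passing members under the reported fit and 19 alternatives, on a log axis with a dashed line at 0.05. Rheb is left of the line in every row except the lowest, without knockouts 3 and 11 (0.0669), whereas Insr, Ppp1r3c and Akt1 cross it when single libraries are left out.

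Some libraries were the highest or lowest of their group for more members than others. Knockout 9 was the highest knockout library for 15 of the 31 tested members, or 48.4%, and for 40% of all tested genes. Knockout 11 was the lowest knockout library for 12 members, or 38.7%, and for 35% of all tested genes. In wildtype liver the lowest library was wildtype 3 for 15 members, or 48.4%, against 39.2% of all tested genes. The highest was wildtype 10 for 13 members, or 41.9%, against 26.3% of all tested genes.

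Genes of the same pathway that are not members were taken from 8 lists by role, 147 genes in all, of which 113 were tested. Of these 1 rose and 9 fell, which is 8.85%, against 14.4% of all tested genes, and their median log2 change was -0.09. In the RAS and MAP kinase branch, 1 of 15 tested genes rose and 1 fell, which is 13.3%, near the share of all tested genes. Mapk3, the gene of the kinase ERK1, was at 21.8, 17.8, 19.3 and 17.9 FPKM in knockouts 3, 9, 10 and 11, against 10.2, 11.9, 11.6 and 13.1 FPKM in wildtypes 1, 3, 10 and 12 (log2 change 0.67, SE 0.10, limma adjusted p = 0.00523). Hras, the gene of a RAS GTPase, was at 23.4, 25.1, 24 and 23.8 FPKM in the knockout libraries, against 38.9, 36.5, 36.5 and 37.9 FPKM in the wildtype libraries (log2 change -0.62, SE 0.07, limma adjusted p = 0.00305). Both passed in 19 of 19 alternatives other than the replicate block, and neither overlapped between groups.

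In the glycogen list 0 of 14 tested genes rose and 2 fell, which is 14.3%, near the 14.4% of all tested genes. Ugp2, which encodes the enzyme that makes UDP-glucose, was at 72.7, 127, 132 and 91.7 FPKM in knockouts 3, 9, 10 and 11, against 243, 239, 285 and 215 FPKM in wildtypes 1, 3, 10 and 12. Its groups were well apart (log2 change -1.24, SE 0.19, limma adjusted p = 0.00505), and it passed in 19 of 19 alternatives other than the replicate block. Gys2, the liver glycogen synthase gene, averaged 109 ± 15.8 FPKM in knockout and 174 ± 43.7 FPKM in wildtype liver (SD, n = 4 each, log2 change -0.65, limma adjusted p = 0.0442), and passed in 6 of 19 alternatives, with adjusted p up to 0.181. Knockout 10, at 131 FPKM, was above wildtype 3, at 122 FPKM.

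Upstream of mTOR complex 1, 14.8% of the tested genes passed, near the 14.4% of all tested genes: 0 of 27 rose and 4 fell. These were Lamtor2, Lamtor4 and Lamtor5, subunits of the Ragulator complex that anchors the Rag GTPases to the lysosome, and Flcn, the gene of folliculin, which acts on a Rag GTPase. Lamtor4 averaged 46 ± 8.95 FPKM in knockout and 76.9 ± 8.91 FPKM in wildtype liver (SD, n = 4 each, log2 change -0.74, limma adjusted p = 0.0115). Lamtor2 averaged 63.2 ± 7.67 FPKM in knockout and 92.4 ± 8.15 FPKM in wildtype liver (-0.55, limma adjusted p = 0.0131), and Lamtor5 averaged 32.1 ± 2.69 FPKM in knockout and 44.4 ± 1.02 FPKM in wildtype liver (-0.46, limma adjusted p = 0.00967). All of the Lamtor calls were lost with the trend along transcript length removed (log2 changes -0.45, -0.17 and -0.14, limma adjusted p = 0.055, 0.223 and 0.184), and that of Lamtor5 also with quantile normalization (-0.29, limma adjusted p = 0.0605). Flcn, outside the rule for named genes, averaged 8.08 ± 1.22 FPKM in knockout and 13.2 ± 2.13 FPKM in wildtype liver (-0.64, limma adjusted p = 0.0136), and its call was lost without knockouts 3 and 11 (-0.58, limma adjusted p = 0.0793).

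Of the outputs of mTOR complex 1, 7.14% passed, against 14.4% of all tested genes: 0 of 14 rose and 1 fell. It was Rps6, the ribosomal protein that S6 kinase phosphorylates, at 482 ± 45.2 FPKM in knockout and 669 ± 34.5 FPKM in wildtype liver (SD, n = 4 each, log2 change -0.48, limma adjusted p = 0.0148), and its call was lost with median-ratio scaling (0.052), quantile normalization (0.351) and the length trend removed (0.138). Of 15 tested brakes on the receptor and PI3K, 6.67% passed, against the same 14.4%: 0 rose and 1 fell. It was Trib3, which encodes a pseudokinase that can bind AKT, at 1.26, 2, 0.951 and 1.78 FPKM in knockouts 3, 9, 10 and 11, against 8.98, 4.35, 5.83 and 14.3 FPKM in wildtypes 1, 3, 10 and 12 (log2 change -1.81, SE 0.30, limma adjusted p = 0.00621). Among 9 tested receptor partners, 10 other PI3K and AGC kinase genes and 9 AMPK genes, 0 passed.

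Promoter sequence was set beside these values because FOXO proteins bind a core motif, GTAAACA, and the related insulin response elements TGTTTTG and TATTTTG, and because the E-box CACGTG is the site of basic helix-loop-helix factors that act on Irs2 beside FOXO1. The sequences are from RefSeq on GRCm38.p6, the assembly of mm10, and cover the 250 bases before each annotated start. They were found for 30 of the 33 members, with 40 starts in all, and not for Insr, Ppp1r3b and Deptor. GTAAACA, searched on both strands, was in 1 of the 40 member windows, from Akt1, and in 3.17% of all 32851 windows. TGTTTTG was in 2 of the 40, from Irs1 and Irs2 (5.56% of all windows), and TATTTTG in 1 of the 40, from Pik3r1 (3.95%). CACGTG was in 4 of the 40, from Irs1, Irs2, Ppp1r3c and Rheb (6.02%). The E-box was added to the search after these windows had been seen. A match is a run of letters, not a shown binding site, and the absence of one says nothing of the factor.

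The stretches of 30 bases around the GTAAACA match of Akt1, on the other strand as TGTTTAC, and around the 4 E-boxes follow, 5′ to 3′ on the gene's strand, with the matched letters in capitals. The TATTTTG of Pik3r1 and a further TGTTTTG in the Irs1 window, nearer the start, are not shown. In the stretches of Irs1 and Irs2 the E-box lies close to an insulin response element, TGTTTTG. How often the 2 motifs lie this close in all windows was not tested. In Irs1 the 2 motifs share letters, and in Irs2 a single base parts them.
Akt1, chr12:112675028-112675057, minus strand, 161 bases before the start: aatctaccctctTGTTTACactcctggtga
Irs1, chr1:82291537-82291566, minus strand, 115 bases before the start: cagaggctccgtCACGTGTTTTGctcctct
Irs2, chr8:11008956-11008985, minus strand, 44 bases before the start: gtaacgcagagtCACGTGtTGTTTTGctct
Ppp1r3c, chr19:36736691-36736720, minus strand, 104 bases before the start: gagggaccggttCACGTGatctggctttga
Rheb, chr5:24842440-24842469, minus strand, 96 bases before the start: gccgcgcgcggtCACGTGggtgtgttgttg

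The whole windows of Akt1, the member that rose, and of Irs2, the docking protein gene that FOXO1 is known to act on, are given for their wider context. The Akt1 window is that of the more distal of its 2 annotated starts, and the window of the other start holds none of the 4 motifs.
Akt1, chr12:112674885-112675134, minus strand: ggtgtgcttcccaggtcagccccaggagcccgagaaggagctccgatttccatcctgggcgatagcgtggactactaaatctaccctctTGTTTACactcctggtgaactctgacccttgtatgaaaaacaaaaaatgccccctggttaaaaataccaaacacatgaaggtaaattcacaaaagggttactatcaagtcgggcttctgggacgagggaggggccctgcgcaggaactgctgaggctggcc
Irs2, chr8:11008930-11009179, minus strand: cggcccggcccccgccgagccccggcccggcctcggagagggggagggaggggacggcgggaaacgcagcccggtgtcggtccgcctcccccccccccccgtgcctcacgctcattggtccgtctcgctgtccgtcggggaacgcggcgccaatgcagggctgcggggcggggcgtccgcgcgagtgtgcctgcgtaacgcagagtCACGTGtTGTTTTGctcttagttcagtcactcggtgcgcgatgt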

How the data were processed

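Total RNA of 8 liver samples was sequenced after Trizol extraction, DNase treatment and column purification, per the labels' protocols. Per the submitters' processing notes, TopHat2 2.1.0, HTSeq, Cufflinks 2.2.1 and mm10 were used, in roles the notes do not state; the sources used here give neither annotation nor strand setting. Values in the deposited table were taken as FPKM, judged from the numbers and those tools, so no count model was used. The 10250 genes averaging 1 FPKM or more were fitted as log2(FPKM + 1) with limma 3.58.1 in R 4.3.3, genotype as the single term, trended variances and Benjamini-Hochberg adjustment at 0.05. Fold changes on this scale understate those of low genes. Ratios were tested by exact permutation (scipy 1.17.1). Depth was the median estimate over genes with a single annotated transcript over 1500 bases, with estimates outside a preset window of 22 M to 40 M dropped. The fragment numbers given for low members rest on it. Positions and lengths came from GENCODE M21. Per-library values are given for members that passed or whose groups did not overlap, for Irs1, Irs2, Akt1 and Akt2, and, chosen after their values were seen, for Ptpn1, Pik3r1, Ppp1r3b, Tsc1 and Grb10. From the pathway lists up to 3 passing genes per direction are named. The members and lists were chosen with earlier results of these data known. Alternatives were other pseudocounts, filters, scalings, trend removals, variance models, weights, the replicate block and left-out libraries. Of the listed markers of other tissues, adipocyte and skeletal muscle genes summed to at most 0.193 and 2.49 FPKM per library. The summed levels of 6 Kupffer, 6 stellate and 7 lymphocyte markers overlapped between groups. The lymphocyte sum overlapped through wildtype 1 only, at 1.85 FPKM. Wildtypes 3, 10 and 12 were at 0.96, 1.05 and 1.41 FPKM there, and the knockout libraries at 1.71 to 2.42 FPKM. The stellate sum overlapped through knockout 9 only, at 57.3 FPKM, with knockouts 3, 10 and 11 below the lowest wildtype library, at 48.7 FPKM. Most of the stellate sum was 1 gene, Dcn, at 18.7 to 44.3 FPKM in knockout and 37.7 to 47.1 FPKM in wildtype liver. Col1a1 went the other way, at 0.346 to 0.518 FPKM in knockout and 0.173 to 0.316 FPKM in wildtype liver. Dcn, Lrat, Reln, Des and Col3a1 overlapped between groups.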

Additional observations from a re-analysis of the deposited data

How the results depend on the processing

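Of 822 log2 changes of 42 single genes (the 31 tested members, Foxo1 and the 10 named pathway genes) under the alternatives, 714 kept their direction and side of the threshold, 65 no longer passed, 4 newly passed and 39 changed sign. The sign changes were in 12 members, none of which passed, and their cause was not tested. With median-ratio scaling the log2 change was 0.043 for Pdpk1, 0.0126 for Ppp1r3b, 0.0794 for Akt1s1 and 0.0607 for Sos1. With quantile normalization it was 0.00155 for Pdpk1, 0.0978 for Akt1s1 and 0.0182 for Sos1. With the GC trend removed it was 0.0181 for Pik3ca, 0.0777 for Pdpk1, 0.0111 for Ppp1r3b, 0.0234 for Akt1s1 and 0.117 for Sos1, and with the length trend removed 0.0892 for Akt1s1. Without knockouts 3 and 11 it was 0.0659 for Pik3ca, 0.169 for Pdpk1, 0.0328 for Gsk3a, 0.157 for Deptor, 0.112 for Akt1s1 and 0.0886 for Sos1. With the replicate block it was -0.168 for Pik3r2 and 0.214 for Akt1s1. Leaving out 1 library at a time gave -0.00898 to 0.179 for Pik3r2, -0.138 to 0.0473 for Pdpk1, -0.000865 to 0.081 for Inppl1, -0.385 to 0.237 for Ppp1r3b, -0.0297 to 0.0858 for Tsc2 and -0.341 to 0.0537 for Deptor. The same gave -0.13 to 0.0766 for Akt1s1, -0.0179 to 0.189 for Shc1, -0.0829 to 0.0348 for Sos1 and -0.0956 to 0.13 for Phlpp1. The number of genes called higher was 485 with median-ratio scaling, 470 with quantile normalization, 516 with the length trend removed and 549 with the GC trend removed, and the number called lower was 720, 652 and 585 under the first 3 of these. Without knockouts 3 and 11 together 656 genes were called lower. Leaving out 1 library at a time gave 102 to 360 genes higher and 599 to 1294 lower; both lowest counts came without wildtype 1. Among members, quantile normalization called 2 higher and 1 lower, leaving out knockouts 3 and 11 called 0 and 0, and leaving out 1 library called 0 to 1 higher and 1 to 3 lower. The log2 ratio of Akt2 to Akt1 differed by -0.0547 without knockout 3, by -0.0246 without wildtype 10 and by up to 0.0717 without knockout 11; the cause was not tested. With the replicate block, which could use the shared title numbers 3 and 10, 1 gene was called higher and 1 lower, and 0 and 0 members. The deviations of same-numbered libraries correlated at -0.0079 and 0.022, so the numbers were not taken to pair them. The depth of each library is an estimate, and low members such as Irs1 rest on few fragments.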
